A study of Homo sapiens with 16 samples.

Results

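Epithelial-mesenchymal transition (EMT) is the switch in which epithelial cells loosen their junctions and take on the shape and motility of mesenchymal cells. A small set of transcription factors drives it: the zinc finger homeobox proteins ZEB1 and ZEB2, the zinc finger proteins SNAI1 (Snail) and SNAI2 (Slug), the basic helix-loop-helix proteins TWIST1 and TWIST2, and the homeobox protein PRRX1. Vimentin (VIM), an intermediate filament protein, is the usual marker of the mesenchymal state, and the epithelial splicing regulators ESRP1 and ESRP2 keep many transcripts in their epithelial splice forms. These 10 genes were taken by symbol from a table of 39007 gene symbols, and 7 of the 10 were among the 13249 genes with a mean above 1 CPM (the count of a gene scaled to a common library total) that entered the statistical test. TWIST1, TWIST2 and PRRX1 did not reach that level.

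The 16 RNA-sequencing libraries came from T24 cells, a human bladder cancer line, and from a gemcitabine-resistant derivative of it grown in the same medium. Gemcitabine is a nucleoside analogue used against bladder cancer. The parental cells (P0) and the early (P3), intermediate (P7) and late (P15) phases of repeated drug exposure were each represented by 4 libraries, so that the course of resistance can be followed step by step. The resistant phases belong to a single derived line, GRC1, of 4 that the study built, so a change at a phase cannot be told apart from a change particular to that line. The labels do not say that replicates were separate cultures, so the p-values measure only the spread between these libraries. Estimated totals ran from 33.7 to 50.0 M counts per library. All values below are deposited log2(CPM + 1) values unless CPM is named.

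The label of a bladder cancer line was checked with 11 urothelial marker genes, of which 6 were below 1 CPM on average at P0, P3 and P7 and 7 at P15. Their summed level was 2110 to 2190 CPM at P0, 2370 to 2510 CPM at P3, 1690 to 1840 CPM at P7 and 675 to 752 CPM at P15. KRT7, a keratin of simple and urothelial epithelium, averaged 9.90 at P0 and 3.64 at P15, and GATA3, a urothelial transcription factor, averaged 5.21 and 1.28. KRT7, KRT8, KRT19 and GATA3 fell at P15 against P0 and KRT18 rose. The P15 sum was mostly KRT18, which averaged 471 CPM at P0 and 633 CPM at P15. Summed over 7 fibroblast markers the level was 7.08 to 8.34 CPM at P0 and 46.6 to 51.7 CPM at P15, with COL1A1 and COL3A1 called higher. COL1A2, LUM and DCN were at 0 in the P0 libraries. At P15 COL1A2 was at 0.12 to 0.59, LUM at 0 to 0.26 and DCN at 0. PDGFRA averaged 0.07 at P0 and 0.17 at P15, and PDGFRB 1.9 and 1.75. P3 replicate 3 stood apart in this list, with COL3A1 at 1.61, COL1A2 at 0.70, LUM at 0.57 and DCN at 0.20. Endothelial markers (4 genes) summed to 6.0 to 7.95 CPM at P0, mostly CDH5, and to 0.515 to 1.09 CPM at P15, and immune markers (5 genes) to 6.16 to 8.50 CPM at P0, mostly CD14, and to 0.0497 to 0.15 CPM at P15, with PTPRC and CD3E at or near 0. The part of these marker changes in the results below was not tested. In bulk libraries, fewer cells that hold a transcript and less of it per cell cannot be told apart.

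In brief, vimentin mRNA rose at every phase, to 34.0 times its parental CPM at P15. Both ESRP genes fell below their parental level in all 3 resistant phases. The transcription factors did not move together: ZEB1 and SNAI1 were higher at P15 than at P0, whereas ZEB2 and SNAI2 were lower. Most of that divergence appeared between P7 and P15. TWIST1, TWIST2 and PRRX1 stayed at or near 0 throughout.

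**Figure D1:**
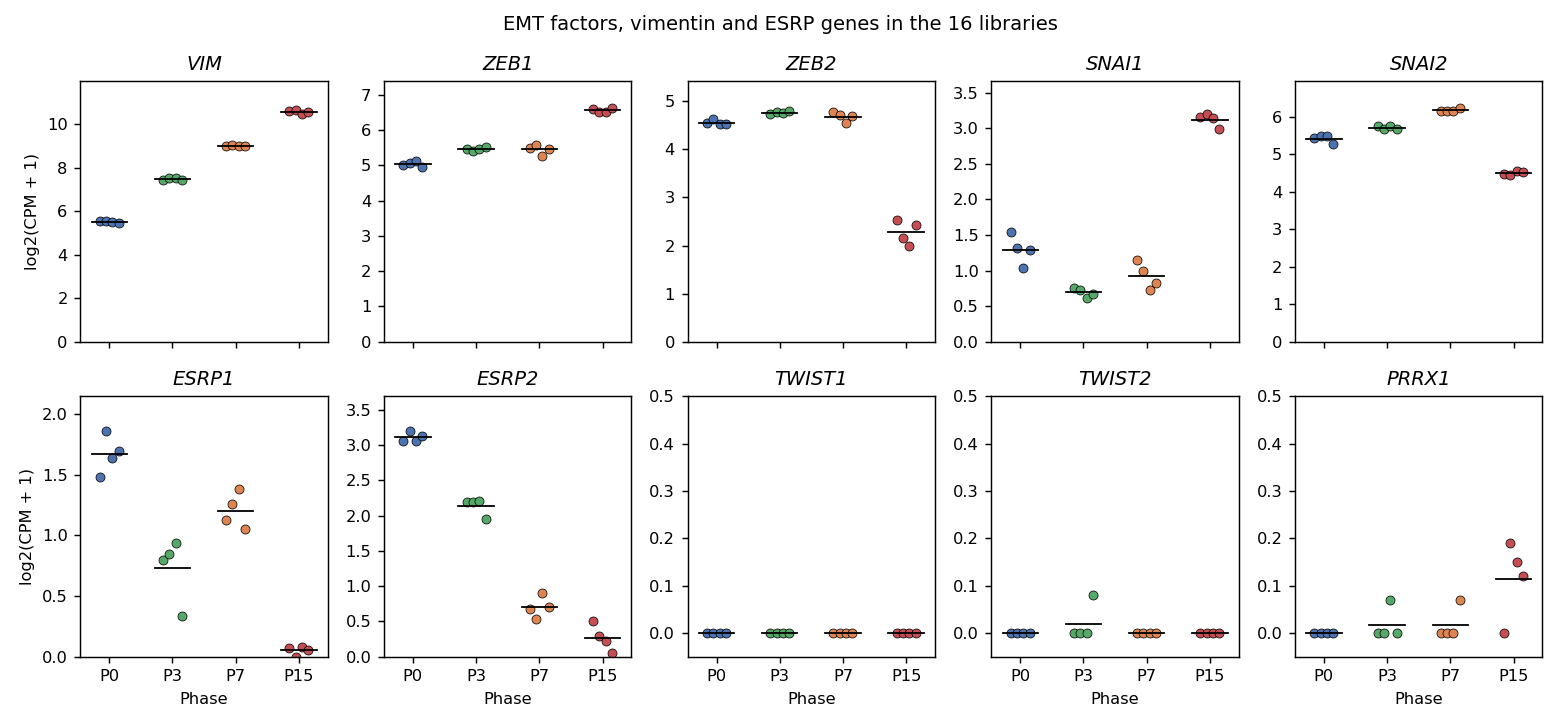
Each panel plots 1 gene, with log2(CPM + 1) on the vertical axis and the phase on the horizontal axis. Points are the 4 libraries of a phase and lines are their means; the vertical scale differs between panels. VIM climbs from 5.52 to 10.58, ZEB2 and SNAI2 drop at P15 where ZEB1 and SNAI1 are highest, and TWIST1 lies at 0 in all 16 libraries.

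ZEB1 and ZEB2 repress epithelial genes such as E-cadherin by binding E-box sequences in their promoters. ZEB1 lies on the plus strand at chr10:31318495-31529814 (GRCh38, GENCODE 44) and ZEB2 on the minus strand at chr2:144364364-144521057. ZEB1 was 5.02, 5.08, 5.13 and 4.96 in the 4 P0 libraries, 5.48, 5.42, 5.47 and 5.52 at P3, 5.51, 5.57, 5.28 and 5.46 at P7, and 6.59, 6.52, 6.53 and 6.64 at P15. P0 was the lowest phase and P15 the highest, with no overlap with the other phases, whereas P3 and P7 overlapped. The difference was 0.42 for P3 against P0 (SE 0.05, limma adjusted p = 1.2e-07) and 1.12 for P15 against P7 (SE 0.05, adjusted p = 4.6e-16). Between P7 and P3 it was -0.02, with a 95% interval of -0.12 to 0.08 and an adjusted p of 0.79. ZEB1 thus stood at 2.93 times its parental CPM at P15.

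ZEB2 was 4.54, 4.63, 4.53 and 4.53 at P0, 4.74, 4.77, 4.75 and 4.79 at P3, 4.77, 4.71, 4.55 and 4.70 at P7, and 2.54, 2.16, 2.00 and 2.42 at P15. The first 3 phases lay close together and the P15 libraries were far below them. The small rise of 0.20 at P3 against P0 had an adjusted p of 0.031 and did not pass without P0 replicate 1, 3 or 4 or P3 replicate 2 or 4 (adjusted p = 0.056 to 0.065). Nor did it pass with no filter or with a pseudocount of 0.1. Over all alternatives its adjusted p was 0.0011 to 0.098. P7 differed from P3 by -0.08 (95% interval -0.24 to 0.08, adjusted p = 0.42) and from P0 by 0.12 (95% interval -0.04 to 0.29, adjusted p = 0.19). At P15 ZEB2 fell by 2.40 against P7 (SE 0.08, adjusted p = 9.9e-19), and its parental CPM was 5.77 times its P15 CPM.

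The balance of the 2 ZEB genes therefore shifted. Within each library, ZEB2 minus ZEB1 averaged -0.49 ± 0.08 (SD, n = 4) at P0, -0.71 ± 0.04 at P3, -0.77 ± 0.06 at P7 and -4.29 ± 0.20 at P15. The shift from P0 to P15 was -3.80 (two-sided exact permutation test, p = 0.029, the smallest that 4 libraries against 4 allow, adjusted p = 0.046 over 24 paralog comparisons). From P3 to P7 it was -0.06 (exact permutation p = 0.143, adjusted p = 0.202). On CPM per kilobase of the canonical transcript, ZEB2 made up 31.1 ± 1.2% of the summed ZEB level at P0 and 2.58 ± 0.46% at P15.

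The start-site windows of ZEB1, ZEB2 and VIM are printed because ZEB1 and VIM rose at P15 against P0, whereas ZEB2 fell. In addition, SNAI and ZEB proteins bind the E-box letters CACCTG, which read CAGGTG on the other strand. The sequences are RefSeq's (GRCh38.p14), running from 250 bases before to 50 after an annotated start, and 5 of the 10 genes had an entry. Capitals mark the E-box letters.
ZEB1 promoter, chr10:31318966-31319265, plus strand: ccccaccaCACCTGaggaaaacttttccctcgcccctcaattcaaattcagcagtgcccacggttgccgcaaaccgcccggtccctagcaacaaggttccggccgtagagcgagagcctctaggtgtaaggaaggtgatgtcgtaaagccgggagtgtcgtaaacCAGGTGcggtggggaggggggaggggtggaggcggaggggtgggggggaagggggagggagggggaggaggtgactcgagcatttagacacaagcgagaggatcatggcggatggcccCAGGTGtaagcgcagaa
ZEB2 promoter, chr2:144520070-144520369, minus strand: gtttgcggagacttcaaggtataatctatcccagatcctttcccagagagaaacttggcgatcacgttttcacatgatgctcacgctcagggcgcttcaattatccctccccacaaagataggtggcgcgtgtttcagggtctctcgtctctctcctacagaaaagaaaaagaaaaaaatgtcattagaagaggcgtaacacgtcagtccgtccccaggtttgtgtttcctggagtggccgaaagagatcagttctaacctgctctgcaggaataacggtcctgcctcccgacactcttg
VIM promoter, chr10:17227991-17228290, plus strand: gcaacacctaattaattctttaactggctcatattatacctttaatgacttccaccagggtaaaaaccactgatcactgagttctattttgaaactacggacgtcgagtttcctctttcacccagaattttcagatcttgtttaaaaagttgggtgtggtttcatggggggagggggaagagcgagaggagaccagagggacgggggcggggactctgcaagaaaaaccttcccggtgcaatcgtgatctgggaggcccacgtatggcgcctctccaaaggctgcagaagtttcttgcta
The ZEB1 window held 3 matches, starting at -242, -85 and 33 from the start site, and the ZEB2 and VIM windows held none. ZEB1 has 7 start-site entries, of which 2 held the letters. Among all 35116 promoter windows of this length, 20.6% held at least 1 match. The GC content was 61.7% for the ZEB1 window, 49% for ZEB2 and 48.0% for VIM, against a median of 58.7% over all windows. A match is a run of letters and not evidence of binding.

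ZEB1 and ZEB2 mRNAs are also textbook targets of the miR-200 family and miR-205, small RNAs of epithelial cells that pair with the 3′ UTR through their seed. The mature RefSeq sequences follow, with the seed (bases 2 to 8) in capitals, and they fall into 3 seed groups.
miR-200b-3p: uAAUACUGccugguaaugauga
miR-200c-3p: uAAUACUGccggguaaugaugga
miR-429: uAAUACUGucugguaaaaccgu
miR-200a-3p: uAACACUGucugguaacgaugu
miR-141-3p: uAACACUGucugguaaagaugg
miR-205-5p: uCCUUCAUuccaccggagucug
The letters CAGTATT, which pair with the first seed group, occurred 6 times in the canonical ZEB1 3′ UTR of 2540 bases and 5 times in that of ZEB2 of 5370 bases. At least 1 such match was found in 16% of 19526 genes, and 2 genes, ZEB1 included, had 6 or more. CAGTGTT, for the second group, occurred 3 times in ZEB1 and 4 times in ZEB2, with a match in 18.2% of genes. ATGAAGG, for miR-205-5p, occurred 1 time in ZEB1 and was not found in ZEB2. A site of the first group from each gene is shown to make the shared letters visible.
ZEB1 3′ UTR site, chr10:31528561-31528585, plus strand: atgtcttcaaacctggCAGTATTaa
ZEB2 3′ UTR site, chr2:144388988-144389012, minus strand: tcgcactacaatgcatCAGTATTat
Mature miRNAs were not measured here. The table lists precursor rows for some of these genes, at 0.22 to 0.34 for MIR429 at P0 and 0 to 0.06 at P15, and at no more than 0.20 for MIR200A and 0.15 for MIR200B in any library. The host transcript of miR-205, MIR205HG, did not exceed 0.26.

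SNAI1 and SNAI2 are repressors of the Snail family that also bind E-boxes. SNAI1 lies on the plus strand at chr20:49982980-49988886 and SNAI2 on the minus strand at chr8:48917598-48921740. SNAI1 was 1.54, 1.31, 1.03 and 1.29 at P0, 0.76, 0.72, 0.62 and 0.67 at P3, 1.15, 1.00, 0.73 and 0.82 at P7, and 3.15, 3.20, 3.14 and 2.99 at P15. The P3 libraries were the lowest apart from an overlap with P7, and all P15 libraries were above all others. SNAI1 fell by 0.60 at P3 against P0 (SE 0.11, adjusted p = 2.6e-05) and rose by 2.19 at P15 against P7 (SE 0.11, adjusted p = 1.1e-15), and with a pseudocount of 0.1 in place of 1 these were -1.11 and 2.98. P7 against P3 gave 0.23 (95% interval 0.02 to 0.44) with an adjusted p of 0.064. It passed without P7 replicate 3 (0.30, adjusted p = 0.026), without P0 replicate 3 (adjusted p = 0.046), with a pseudocount of 0.1 (0.47, adjusted p = 0.032) and with the replicate number as a block (adjusted p = 0.04 and 0.036 by the 2 numberings). In the remaining alternatives the adjusted p was 0.05 or more, up to 0.23. In CPM the means were 1.47 at P0, 0.617 at P3, 0.911 at P7 and 7.71 at P15, a P15 level 5.25 times the parental one.

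SNAI2 was 5.42, 5.48, 5.48 and 5.26 at P0, 5.75, 5.66, 5.74 and 5.67 at P3, 6.15, 6.15, 6.16 and 6.23 at P7, and 4.46, 4.45, 4.56 and 4.52 at P15. It stepped up through P7 and then dropped below the parental libraries, with no overlap between any phases. The steps were 0.30 at P3 against P0 (adjusted p = 6.4e-06), 0.47 at P7 against P3 (adjusted p = 1e-08) and a fall by 1.68 at P15 against P7 (adjusted p = 1.7e-20; SE 0.05 for each). Against the parental cells P15 was lower by a log2 difference of -0.91 (adjusted p = 4.1e-15), short of 2-fold.

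Within a library SNAI2 exceeded SNAI1 by 4.12 ± 0.25 (SD, n = 4) at P0, 5.01 ± 0.08 at P3, 5.25 ± 0.21 at P7 and 1.38 ± 0.12 at P15. The P15 shift against P7 was -3.87 (exact permutation p = 0.029, adjusted p = 0.046), and that from P3 to P7 was 0.24 (exact permutation p = 0.086, adjusted p = 0.129). Per kilobase, SNAI2 made up 95.7 ± 1.1% of the pair at P0, 98.4 ± 0.46% at P7 and 68.7 ± 2.0% at P15. SNAI2 thus remained the more abundant of the pair at P15, at 9.91 CPM per kilobase against 4.52 for SNAI1.

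**Figure D2:**
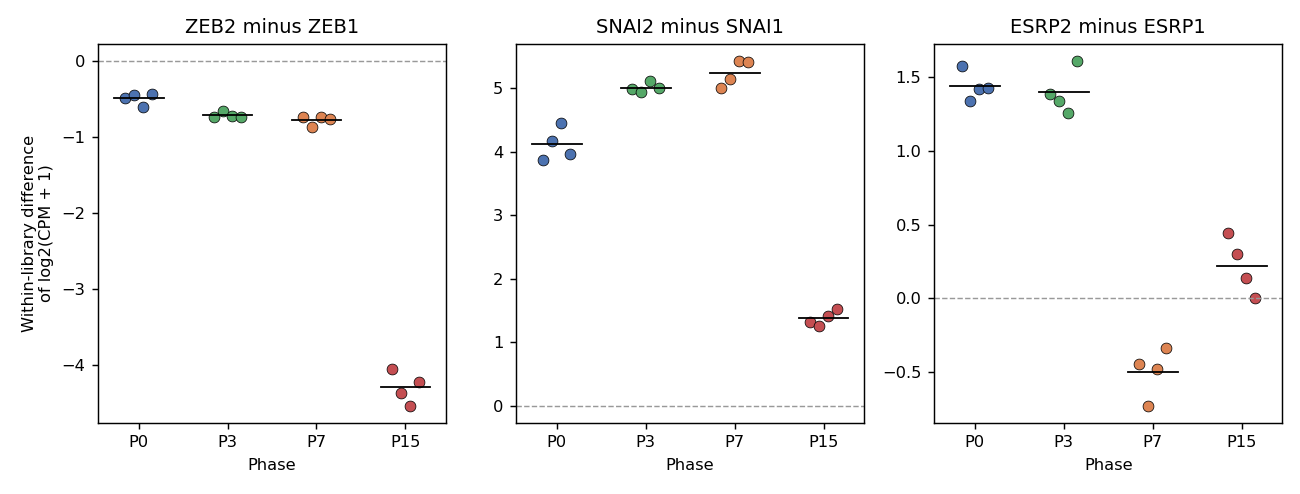
Points are the 4 libraries of each phase and lines their means; the vertical axis gives the difference of log2(CPM + 1) between 2 paralogs within a library, and the dashed line marks equal levels. ZEB2 minus ZEB1 falls to -4.29 and SNAI2 minus SNAI1 to 1.38 at P15, whereas ESRP2 minus ESRP1 turns negative at P7 (-0.50).

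TWIST1, TWIST2 and PRRX1, regulators of mesoderm and of limb and craniofacial mesenchyme, were barely detected. TWIST1 (chr7:19020991-19117636, minus strand) was listed at 0 in all 16 libraries, where a count of 0 allows up to 0.0367 to 0.0417 CPM per phase. TWIST2 (chr2:238848032-238910534, plus strand) was listed at 0 in 15 libraries and at 0.08 in P3 replicate 4. PRRX1 (chr1:170662728-170739421, plus strand) was at 0 in all P0 libraries, at 0.07 in P3 replicate 3 and P7 replicate 4, and at 0, 0.19, 0.15 and 0.12 in the P15 libraries. The P15 values come from an estimated 14 counts, or 7 pairs, a level 2.06 times the parental floor, and the exact 95% lower limit of the ratio to P0 was 1.27. P15 against P0 gave a two-sided exact permutation p of 0.143 and an adjusted p of 0.857 over 18 tests of these 3 genes. Such limits cover counting error only.

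Vimentin forms the intermediate filament network of mesenchymal cells. VIM lies on the plus strand at chr10:17228241-17237593. It was 5.56, 5.57, 5.49 and 5.48 at P0, 7.45, 7.52, 7.51 and 7.42 at P3, 8.99, 9.05, 9.0 and 8.98 at P7, and 10.61, 10.64, 10.49 and 10.58 at P15. Every library of a phase lay above every library of the phase before it. The 3 steps were 1.95, 1.53 and 1.58 (SE 0.03 each, adjusted p = 7.7e-23, 8.9e-21 and 1.1e-22). In CPM the means were 45.1, 177, 513 and 1531. The whole rise of 5.06 at P15 against P0 (adjusted p = 1.1e-32) was the largest of the 7 tested genes here.

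For each tested gene, the 3 genes of most similar pattern were sought. Likeness was taken as the root mean square difference over 16 libraries after each gene was centred on its own mean, and for VIM it was 0.49 for STC1, 0.76 for ITGB4 and 0.77 for KCTD15, against 1.87 for VIM around its own mean. STC1 (stanniocalcin 1, a secreted glycoprotein) averaged 3.77, 6.96, 7.41 and 9.19 over the phases. For ZEB1 the nearest genes were SPRY4 at 0.08, SH3BGRL2 at 0.09 and PHLDA1 at 0.10, against 0.57 for ZEB1 itself. For ZEB2 they were CCNE2 (cyclin E2) at 0.13, LASP1 at 0.14 and LBX1-AS1 at 0.16, against 1.04. SNAI1 was nearest to FSD1 and CLSTN3 at 0.14 and ENTPD2 at 0.15, and SNAI2 to LPCAT1 at 0.09 and DUSP10 and COL4A2 at 0.10. DANCR at 0.15 and DFNA5 and ARRB1 at 0.17 were nearest to ESRP1 (0.62 around its own mean), and ANO9 at 0.23, PDPN (podoplanin) at 0.27 and FAM109B at 0.30 to ESRP2. These are descriptions over libraries that share their phases. Likeness was taken on log2(CPM + 1), where the added 1 compresses low genes such as ESRP1, ESRP2 and SNAI1. ESRP1 averaged 2.196 CPM at P0 and 0.0373 CPM at P15, whereas DANCR averaged 5.75 and 4.31 in log2(CPM + 1). For such genes a small distance does not mean an equal fold change.

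ESRP1 and ESRP2 are RNA-binding proteins of epithelial cells. ESRP1 lies on the plus strand at chr8:94641074-94707466 and ESRP2 on the minus strand at chr16:68229033-68238102. ESRP1 was 1.48, 1.86, 1.64 and 1.70 at P0, 0.80, 0.85, 0.94 and 0.34 at P3, 1.13, 1.26, 1.38 and 1.05 at P7, and 0.07, 0, 0.08 and 0.06 at P15. It was lower at P3, partly higher again at P7 and close to 0 at P15, with no overlap between phases. Differences were -0.94 at P3 against P0 (SE 0.12, adjusted p = 2.2e-07), 0.47 at P7 against P3 (adjusted p = 0.0015) and -1.15 at P15 against P7 (adjusted p = 2.5e-09). The added 1 in log2(CPM + 1) compresses a gene this low, and with 0.1 added instead the 3 differences were -1.64, 0.94 and -3.37. An estimated 158 pairs of counts at P0 and 3 at P15 gave a CPM ratio of 59.8 (exact 95% interval 20.1 to 293, counting error only).

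ESRP2 was 3.06, 3.20, 3.06 and 3.13 at P0, 2.19, 2.19, 2.20 and 1.95 at P3, 0.68, 0.53, 0.90 and 0.71 at P7, and 0.51, 0.30, 0.22 and 0.06 at P15. Unlike ESRP1 it was lower at each phase than at the one before, with no overlap. The steps were -0.98 at P3 against P0 (SE 0.10, adjusted p = 8.9e-09), -1.43 at P7 against P3 (adjusted p = 2.9e-11) and -0.43 at P15 against P7 (adjusted p = 4e-04). The last step did not pass after quantile normalization, at -0.16 with an adjusted p of 0.17. With a pseudocount of 0.1 the P7 and P15 steps were -2.27 and -1.34. The parental CPM was 12 times that of P7 and 35.5 times that of P15. The P15 mean of 0.216 CPM lay near the counting floor of 0.12 to 0.178 CPM per library. The ratio to P15 is therefore imprecise, and no counting interval was computed for it.

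The 2 ESRP genes thus changed places at P7. ESRP2 minus ESRP1 was 1.44 ± 0.10 (SD, n = 4) at P0, 1.40 ± 0.15 at P3, -0.50 ± 0.16 at P7 and 0.22 ± 0.19 at P15. The shift of -1.90 from P3 to P7 had an exact permutation p of 0.029 and an adjusted p of 0.046, whereas the shift of -0.04 from P0 to P3 had an exact permutation p of 0.657 and an adjusted p of 0.876. Per kilobase, ESRP2 was 79.4 ± 1.8% of the pair at P0 and 34.6 ± 6.0% at P7. Its P15 share of 79.7 ± 21.0% rests on levels near the counting floor of 0.12 to 0.178 CPM per library. Over all 24 paralog comparisons, 15 passed, and the 6 of TWIST2 minus TWIST1 had no signal to compare. Those that passed include the ESRP shifts to P15, which rest on the same low levels, compressed by the added 1. They do not show that ESRP2 fell relative to ESRP1 from P0 to P15.

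In the comparison of P3 with P0, a gene was counted as called at an adjusted p below 0.05 and a log2 difference of at least 1. Of the 7 tested EMT genes, VIM alone was called higher and none lower, against 1.95% and 2.51% of all 13249 genes. All 7 passed the adjusted p alone, 4 higher and 3 lower, where 31.4% and 37.3% of all genes did. In all 7 the libraries of the 2 phases did not overlap, as for 60.1% of all genes. Their median difference was 0.20, against -0.02 over all tested genes. Without P0 replicate 1 there were 2 called, without P3 replicate 3 there were 3, and with a pseudocount of 0.1 there were 4, where ESRP1 (-1.64), ESRP2 (-1.15) and SNAI1 (-1.11) joined VIM and where the calls over all genes rose from 259 higher and 333 lower to 377 and 562.

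P7 against P3 had VIM called higher and ESRP2 lower, where 0.996% and 0.845% of all genes were called. ZEB1, ZEB2 and SNAI1 did not pass. VIM, SNAI2 and ESRP1 passed higher and ESRP2 lower, beside 30.3% and 28% of all genes, and the same 4 had libraries that did not overlap, beside 51.9%. The median over the 7 was 0.23, against 0.01 over all genes. Leaving out P7 replicate 3 turned the ZEB1 difference from -0.02 to 0.04. P7 against P0 likewise had VIM called higher and ESRP2 lower, against 1.86% and 1.52% of all genes. There 3 passed higher (ZEB1, SNAI2 and VIM) and 3 lower (SNAI1, ESRP1 and ESRP2), beside 27.9% and 34.2%, and 5 had libraries that did not overlap, beside 52.6%. The median was 0.12, against -0.02.

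P15 against P7 had 3 EMT genes called higher (ZEB1, SNAI1 and VIM) and 3 lower (ZEB2, SNAI2 and ESRP1), where 13.4% and 12.1% of all genes were called. This step was thus broad across the transcriptome. Every one of the 7 passed, 3 higher and 4 lower, beside 46.3% and 40.1% of all genes, and none had overlapping libraries, beside 80.8% without overlap among all genes. The median over the 7 was -0.43, against 0.06. P15 against P3 had 3 called higher (ZEB1, SNAI1 and VIM; 15% of all genes) and 3 lower (ZEB2, SNAI2 and ESRP2; 12.2%). There 3 passed higher and 4 lower (46.1% and 41.1% of all genes), all 7 without overlap (82.1%). P15 against P0 had the same 3 called higher (12.2%) and ZEB2, ESRP1 and ESRP2 called lower (11.5%). Again 3 passed higher and 4 lower (45.3% and 40.9%), all 7 without overlap (79.7%), and the median was -0.91, against 0.04. These comparisons share the P15 libraries.

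**Figure D3:**
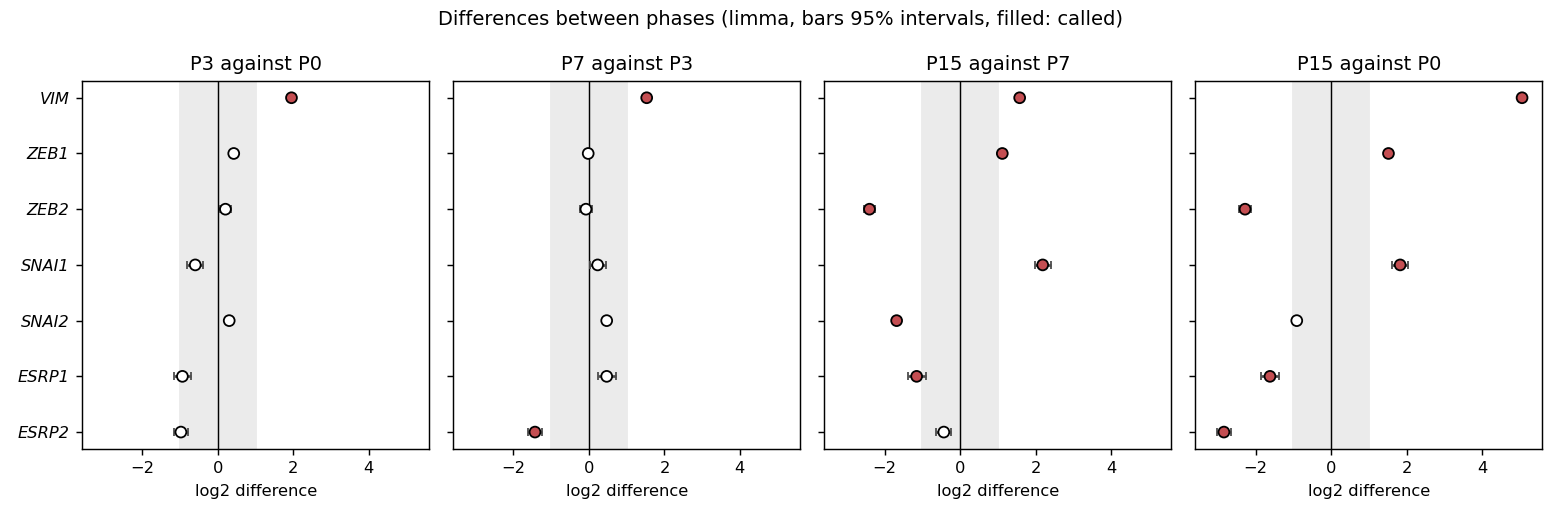
The horizontal axis gives the log2 difference from limma for the 7 tested genes in 4 comparisons. Points are estimates, bars 95% intervals, filled points are called, and the grey band spans differences below 2-fold. VIM lies at 1.95, 1.53 and 1.58 in the 3 steps, and in P15 against P7 ZEB2 (-2.40) and SNAI2 (-1.68) lie opposite ZEB1 (1.12) and SNAI1 (2.19).

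Other genes of the transition were taken from lists written for their known roles and are described in P15 against P0. Of 22 genes of epithelial junctions and cell surface, 16 were tested, 4 were called higher and 7 lower, where 12.2% and 11.5% of all tested genes were called, and the median was -0.32 against 0.04 over all genes. AP1M2, which sorts proteins to the basolateral membrane, rose from 0.59 to 4.82, and the tight junction genes TJP3 and CGN rose by 2.19 and 1.6. KRT19 (keratin 19) averaged 6.43 at P0 and 0.02 at P15, MAL2 (apical transport) 4.70 and 1.03, and SPINT1 (a surface protease inhibitor) 5.44 and 2.17. CDH1, the E-cadherin gene repressed by SNAI and ZEB proteins, was not tested: it lay between 0 and 0.08 in P0 libraries and between 0 and 0.13 at P15, so it was near 0 in the parental cells already.

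Of 22 mesenchymal genes 18 were tested, with 5 called higher, 6 lower (12.2% and 11.5% of all genes) and a median of -0.79. The collagen genes COL3A1 and COL5A1 were at 0 and at no more than 0.07 in the P0 libraries and at 4.40 to 4.57 and 4.28 to 4.53 at P15. FN1 (fibronectin) fell by 7.54, from 14.45 to 6.90, SPARC (a matrix protein) fell by 7.14 and LOX (lysyl oxidase, a collagen cross-linker) fell by 3.74. CDH2 (N-cadherin) went from 7.60 to 6.62, a difference of -0.98 (adjusted p = 1.2e-19). In P7 against P0, LOX and SPARC were among 3 genes of this list called higher and none was called lower (1.86% and 1.52% of all genes). In that comparison 8 passed higher and 5 lower, CDH2 among the latter, beside 27.9% and 34.2% of all genes. In P3 against P0, COL1A1 was called lower.

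Of 12 epithelial transcription factor genes 6 were tested, with 1 called higher (KLF4, 1.81), 2 called lower and a median of 0.05. Of all tested genes 12.2% were called higher and 11.5% lower. EHF, called lower, went from 2.39 to 0.21, and GRHL2, a factor of epithelial junction genes, did not exceed 0.07 in any library. Of 8 tested genes for other EMT transcription factors and E proteins, FOXC2 (a forkhead factor) was called higher at 1.06 (12.2% of all genes), with a median of 0.40. All 12 corepressor genes for SNAI and ZEB proteins were tested, and HDAC1 (a histone deacetylase) alone was called, with a fall by 1.33. In this list 4 passed higher and 6 lower, where 45.3% and 40.9% of all genes did, and the median was -0.16. Of 11 genes for turnover of these factors, FBXL5 (a ubiquitin ligase subunit) was called higher at 1.84. There 7 passed higher and 2 lower, beside the same shares of all genes, and the median was 0.30.

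Beside the ESRP genes, 13 other splicing regulators were tested, and 4 were called lower and none higher, where 11.5% and 12.2% of all genes were. RBM47 fell by 1.76, SRSF1 by 1.47 and HNRNPM by 1.36, and the median was -0.17. Of 11 tested genes whose transcripts ESRP proteins splice, 1 was called higher and none lower, with a median of -0.14. Of these, 3 passed higher and 6 lower, where 45.3% and 40.9% of all genes did. Gene-level values do not show splice forms. A list of 11 intermediate filament partners of vimentin, lamins included and keratins not, had 5 tested genes and 6 untested ones. All 5 tested genes passed lower, as 40.9% of all genes did. Their median was -0.65, with LMNB1 (lamin B1) called lower at -1.06.

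Antisense neighbours of ZEB1 and VIM were in the table. ZEB1-AS1, on the other strand from ZEB1 with 1953 bases of the gene spans shared, averaged 1.32, 1.40, 1.34 and 2.92 over the phases, and rose with ZEB1 at P15 against P0 (1.61, adjusted p = 2.4e-14). VIM-AS1 shares 1778 bases with VIM, averaged 2.76, 2.57, 2.96 and 0.82, and fell by 1.94 at P15 against P0 (adjusted p = 1.5e-15), where VIM rose. At the earlier steps the pairs behaved otherwise: VIM-AS1 rose by 0.38 at P7 against P3 (adjusted p = 0.0013), as VIM did, and ZEB1-AS1 differed by 0.09 at P3 against P0 (adjusted p = 0.4), where ZEB1 rose. ZEB2-AS1 was listed at 0 in all libraries, and SNAI3-AS1 averaged 1.54 at P0 and 2.30 at P15. The strand setting of the counting was not given in the sources used here, so reads of a gene and its antisense partner cannot be told apart where they overlap. The same holds for ESRP2 and its neighbour NFATC3 on the other strand. ZEB2, SNAI2 and TWIST1 likewise overlap exons of genes on the other strand, and ESRP2 also overlaps MIR6773 on its own strand.

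**Figure D4:**
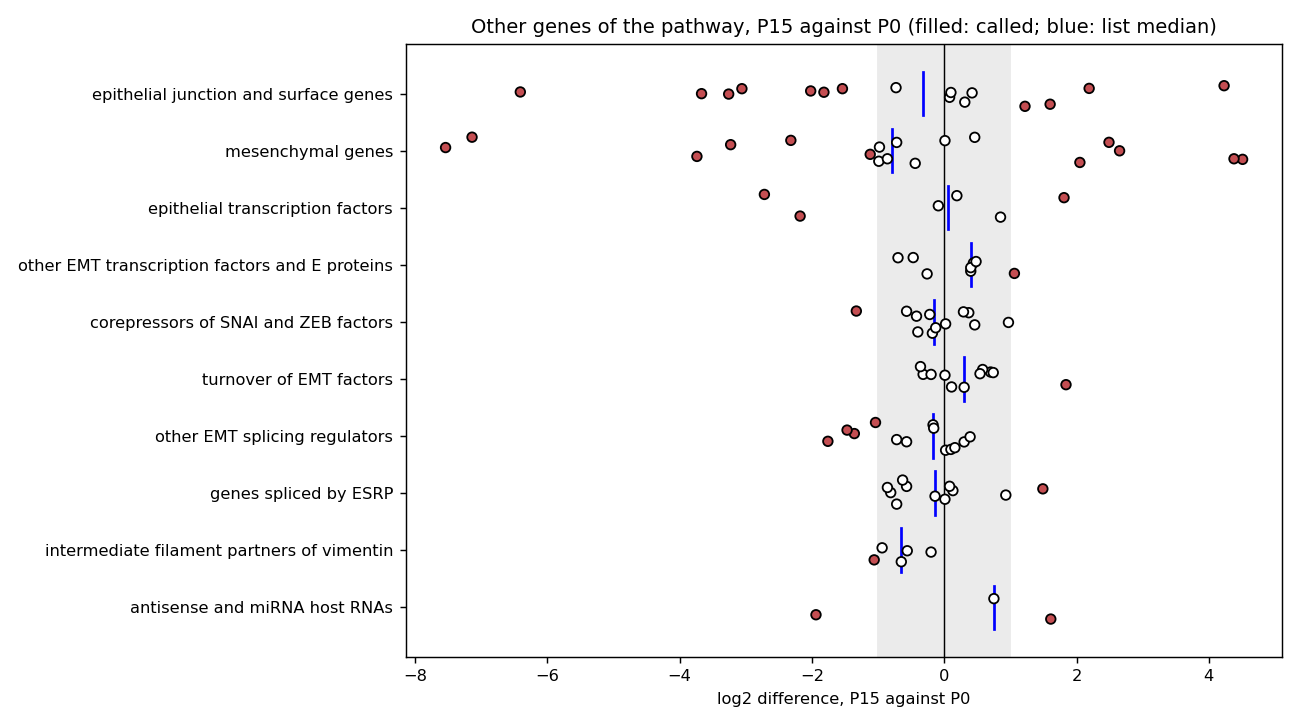
Points are the tested genes of 10 lists, the horizontal axis is the log2 difference of P15 against P0, filled points are called, the grey band spans differences below 2-fold and blue ticks are list medians. Epithelial and mesenchymal genes both spread widely to each side (medians -0.32 and -0.79), and of the 12 corepressor genes HDAC1 at -1.33 is the 1 outside the grey band.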

How the data were processed

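The authors aligned paired-end reads with STAR 2.6.1a to GRCh38, counted genes with featureCounts and scaled the counts to CPM, per the labels and the study's methods. The deposited values are log2(CPM + 1), rounded to 2 decimals. The quantile normalization and median centring named in the methods are not carried by them, and the annotation release, strand setting and handling of multimapping reads were not given in the sources used here. All 16 columns were mapped to a labelled sample by name.

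All 16 libraries entered a single limma fit (version 3.58.1, R 4.3.3) with a coefficient for each phase and a variance trend. Only the 13249 genes averaging more than 1 CPM were tested, and their p-values were adjusted together by the Benjamini-Hochberg method. Passed means an adjusted p below 0.05, and called also a log2 difference of at least 1. Differences are on the log2(CPM + 1) scale, which understates changes of low genes. Genes below the filter and within-library paralog differences were compared with two-sided exact permutation tests. The procedure was tested on simulated data.

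Low values lay on whole multiples of 1 count, which gave the estimated totals. Values of 2 counts were 2.9 to 3.2 times as frequent as values of 1 count, as when both mates of a pair are counted, so floors (3 pairs of counts) and exact 95% intervals use pairs.

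The 10 genes and the lists were chosen with earlier results of these data known. The text names all 10 genes, CDH1, CDH2 and GRHL2, all antisense and host RNAs, and from each other list up to 3 genes called higher and 3 called lower with the largest differences in P15 against P0. Some genes that this rule would name are not reported here. KRT7 and GATA3 come from the marker lists and the miR-200 precursor rows from the sequences shown, chosen after their values were seen. For each tested member the 3 genes with the smallest root mean square difference over the libraries were named.

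Promoter and miRNA sequences were taken from RefSeq (GRCh38.p14), positions and 3′ UTRs from GENCODE 44. Alternatives were another filter, no filter, pseudocounts of 0.1 and 5, quantile normalization, equal library medians, separate fits of 2 phases, a fit with no trend, replicate blocks, leaving out each library, and, added after seeing the data, a fit without P15.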

Additional observations from a re-analysis of the deposited data

Results flagged for a closer look

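In 19 of 156 groups of 4 libraries, the highest or lowest library stood apart from the others by more than Dixon's 95% critical value (the gap to the nearest library divided by the range). Chance flags about 1 in 20 groups, or 7.8 here. Values below are log2(CPM + 1), followed by that ratio, and no cause was tested.

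Of the 10 EMT genes, ZEB2 was higher in P0 replicate 2 (4.63, ratio 0.90), SNAI2 was higher in P7 replicate 4 (6.23, ratio 0.88) and ESRP2 was lower in P3 replicate 4 (1.95, ratio 0.96). TWIST2 in P3 replicate 4 (0.08) and PRRX1 in P3 replicate 3 and P7 replicate 4 (0.07 each) had a ratio of 1.0 because the other 3 libraries were at 0.

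COL3A1 was 1.61 in P3 replicate 3 (ratio 0.95), where the other P3 libraries did not exceed 0.08, and COL5A1 was higher in the same library (0.31, ratio 0.85). CDH1 was also higher there (0.07, ratio 1.0). COL3A1 in P7 replicate 1, COL5A1 in P0 replicate 1 and KRT19 in P15 replicate 2 were at 0.07 with all others at 0 (ratio 1.0 each). KRT19 was higher in P0 replicate 1 (6.51, ratio 0.83), and so was MIR205HG (0.14, ratio 1.0). CDH1 was lower in P0 replicate 3 (0, ratio 0.88), and ZEB1-AS1 was lower in P3 replicate 1 (1.23, ratio 0.84). KLF4 was higher in P0 replicate 2 (4.03, ratio 0.86), and in P15 replicate 3 FBXL5 (7.47, ratio 0.86) and SRSF1 (6.74, ratio 0.83) were higher.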

How the results depend on the processing

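Of 42 differences of the 7 tested genes, 37 kept their direction and their side of an adjusted p of 0.05 in every alternative run, whatever their size. In P3 against P0, 4 EMT genes were called with a pseudocount of 0.1, and 1 to 3 with a library left out. A minimum of 1 CPM in all 16 libraries left SNAI1, ESRP1 and ESRP2 untested. Of the remaining EMT genes, 1 was called in P7 against P3, 1 in P7 against P0 and 3 in P15 against P0. Of all 11523 genes tested there, 72 were called higher and 67 lower in P7 against P3. For P7 against P0 these counts were 170 and 93, and for P15 against P0 they were 1112 and 1015. With a pseudocount of 5, 1 EMT gene was called in P7 against P3, where 49 of all 13249 genes were called higher and 57 lower. The ZEB1 difference of P7 against P3 ranged from -0.06 to 0.04 with a library left out, and was 0.04 without P7 replicate 3. With a pseudocount of 0.1, the ESRP2 minus ESRP1 shift, P3 against P0, was 0.49 and the ESRP2 minus ESRP1 shift, P15 against P0, was -0.69 (exact permutation adjusted p = 0.323). ZEB2 in P7 against P0 passed in a fit without P15, added after seeing the data (0.12, adjusted p = 0.039). With a pseudocount of 5, the SNAI2 minus SNAI1 shift, P7 against P3, passed at 0.37 and the ESRP2 minus ESRP1 shift, P3 against P0, at -0.25 (exact permutation adjusted p = 0.04 each). Permutation tests with 3 libraries against 4 cannot reach the threshold and were not run.

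The replicate numbers did not pair the libraries. Titles and descriptions number 14 of the 16 libraries differently, and 1 of 24 correlations between same-numbered libraries was above 0.1 under either numbering (-0.15 to 0.22 and -0.12 to 0.22). With the replicate block, 1 EMT gene was called in P3 against P0, 2 in P7 against P3 and in P7 against P0, and 6 in each comparison of P15, as without it. SNAI1 in P7 against P3 then had an adjusted p of 0.04 (description numbers) or 0.036 (title numbers). Of the 16 libraries, 5 or 6 correlated best with their own number.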
